A study of Mus musculus with 6 samples.

Results

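U17 and U8 are small nucleolar RNAs (snoRNAs) that act in the cleavage of the ribosomal RNA precursor. In the mouse, U17 is encoded by Snora73a and Snora73b, and U8 by Snord118. They were found in the small RNA-seq data of exosomes as the transcripts whose identifiers belong to these 3 genes in the GENCODE mouse annotation, release M21. Each gene had 1 transcript in the deposited table, so that the 3 members were 3 of 5880 ncRNA transcripts and 3 of 605 annotated as snoRNAs. Exosomes were recovered by differential ultracentrifugation from medium without serum. The UD-P19 group (replicates 1, 2 and 3) came from undifferentiated P19 cells, a mouse embryonal carcinoma line, kept in alpha-MEM with N2 supplement. The P19N group (replicates 4, 5 and 6) came from neurons that were made from the same line with retinoic acid and kept in neurobasal medium with B27 and N2. P19N cultures were also exposed to 5-fluorouridine, a nucleoside analogue that blocks cell division, together with uridine, on day 3 and again after the medium of day 8 was taken. P19N replicates 5 and 6 had thus been exposed a further time, and no such exposure is described for UD-P19. This comes from the study's methods, whereas the sample labels state that no drug was used. Neurons were 8 days old for P19N replicate 4, 10 days old for replicate 5 and 12 days old for replicate 6, and thus an effect of age cannot be told apart from the spread between replicates. Culture medium and the exposure to 5-fluorouridine also differed between the groups and cannot be told apart from cell state.

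SnoRNAs stay mostly in the nucleolus, where each one works in a complex with proteins. Most of them guide the chemical modification of single rRNA nucleotides, but U17 and U8 are known for their need in rRNA processing. U17, a box H/ACA snoRNA also called E1, is needed for the cleavages that lead to the rRNA of the small ribosomal subunit. U8, a box C/D snoRNA, is needed to mature the rRNAs of the large subunit. The comparison asks whether the exosomes of P19N differ from those of UD-P19 in these RNAs.

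The sequences of both U17 copies are shown because reads of one can be hard to assign between copies. They are the GENCODE M21 transcripts on GRCm38, written 5′ to 3′ as DNA, with the positions at which the copies differ in capitals.
Snora73a: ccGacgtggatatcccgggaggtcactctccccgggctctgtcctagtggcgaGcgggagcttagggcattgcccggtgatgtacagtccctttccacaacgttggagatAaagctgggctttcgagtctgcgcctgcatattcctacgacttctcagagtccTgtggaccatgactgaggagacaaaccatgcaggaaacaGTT
Snora73b: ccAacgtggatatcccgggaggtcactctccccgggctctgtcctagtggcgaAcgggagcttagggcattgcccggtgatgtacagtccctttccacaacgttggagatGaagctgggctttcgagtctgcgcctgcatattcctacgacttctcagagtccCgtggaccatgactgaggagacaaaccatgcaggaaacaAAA
Both copies were 205 nt long and differed at 7 positions, G3A, G54A, A111G, T164C, G203A, T204A and T205A, where the base of Snora73a comes first and positions are counted from the 5′ end. Their identity was 96.6%, and the longest stretch without a difference was 56 nt. Both had the letters ACA followed by 3 bases at the 3′ end, the place of the box ACA, as had 24.1% of the 605 snoRNA transcripts (given strand only).

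U8 is shown with Gm24208, a snoRNA transcript of nearly the same sequence with which it shared reads. In Snord118 the capitals mark the first TGATGA and the last CTGA, the letters of box C and box D. In Gm24208 they mark the positions that differ from Snord118.
Snord118: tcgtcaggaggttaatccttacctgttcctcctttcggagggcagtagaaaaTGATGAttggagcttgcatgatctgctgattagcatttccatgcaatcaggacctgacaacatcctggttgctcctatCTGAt
Gm24208: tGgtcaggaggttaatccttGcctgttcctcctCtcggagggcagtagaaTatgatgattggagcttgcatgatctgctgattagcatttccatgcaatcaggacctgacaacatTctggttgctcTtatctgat
Both were 135 nt long, and 6 positions differed (C2G, A21G, T34C, A51T, C116T and C127T, Snord118 first), an identity of 95.6%. In Snord118, TGATGA began at position 53 and the last CTGA at position 131. The same order of these letters, on the given strand, was found in 57.2% of the 605 snoRNA transcripts.

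The U17 genes lie on the minus strand of chromosome 4, Snora73a at chr4:132352775-132352979 and Snora73b at chr4:132352322-132352526 (GRCm38). Both lie in introns of Snhg3, the non-coding host gene of U17, and of 1 transcript of Rcc1, which encodes an exchange factor of the GTPase Ran. The exception is the Snhg3 transcript ENSMUST00000141090 (chr4:132351934-132352933), whose exon covers 159 nt of Snora73a, positions 47 to 205, with 100% identity. U8 lies at chr11:69073427-69073561 on the plus strand, 133 nt from the nearest transcript of Tmem107, a gene for a membrane protein of the cilium. Gm24208 lies at chr12:13163629-13163763 on the minus strand.

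All 3 members were found in all 6 exosome libraries, and none of them was called as different between UD-P19 and P19N exosomes in the test of the total counts. U8 was the abundant one, with 11956 counts over the 6 libraries against 634 of Snora73a and 535 of Snora73b. The total counts of all transcripts were between 454499 and 762575 per UD-P19 library and between 588646 and 887460 per P19N library. Counts were scaled by the TMM method of edgeR to CPM, that is counts per 1000000 counts of the library, and its quasi-likelihood F test was run on the 1286 transcripts that reached 15 counts over the 6 libraries. The threshold for a call was a Benjamini-Hochberg adjusted p of 0.05. Of the 1286, 309 (24.0%) were called, 193 higher and 116 lower (9.02%) in P19N exosomes, and 0 of the 3 members were among them. With scaling by DESeq2 size factors the split was 178 higher and 189 lower. It was 190 and 207 with a minimum total of 5 counts, and 180 and 195 with the DESeq2 test. The split also turned without UD-P19 replicate 1 (122 higher, 174 lower), UD-P19 replicate 3 (130 and 161) or P19N replicate 5 (105 and 117). It was 382 and 151 without UD-P19 replicate 2, 124 and 75 without P19N replicate 4 and 197 and 107 without P19N replicate 6. CPM of the groups did not overlap at 42.0% of tested transcripts, and at 0 of the 3 members.

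U8 was at 3216, 2386 and 4283 CPM in UD-P19 replicates 1, 2 and 3 and at 3163, 2170 and 2355 CPM in P19N replicates 4, 5 and 6. UD-P19 replicate 3 was the highest and P19N replicate 5 the lowest, and the groups overlapped. U8 averaged 3295 ± 951 CPM (SD, n = 3) over UD-P19 libraries and 2563 ± 528 CPM (SD, n = 3) over P19N libraries. The log2 fold change (P19N over UD-P19) was -0.36 with an SE of 0.347 and a 95% interval from -1.10 to 0.37 (edgeR quasi-likelihood test, adjusted p = 0.454).

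Snora73a was at 235, 117 and 162 CPM in the UD-P19 libraries and at 181, 145 and 107 CPM in the P19N libraries. The UD-P19 libraries thus covered nearly the whole range of the P19N libraries. The log2 fold change was -0.24, with an SE of 0.444 and a 95% interval from -1.18 to 0.70 (edgeR quasi-likelihood test, adjusted p = 0.719). Snora73b was at 98.0, 145 and 89.1 CPM in UD-P19 and at 149, 157 and 100.2 CPM in P19N exosomes. Only UD-P19 replicate 2 and P19N replicate 6 crossed between the groups. Its log2 fold change was 0.28, with an SE of 0.445 and a 95% interval from -0.66 to 1.23 (edgeR quasi-likelihood test, adjusted p = 0.663). The direction of Snora73b turned without UD-P19 replicate 1 (-0.08), UD-P19 replicate 3 (-0.10) or P19N replicate 5 (-0.06). With both copies summed, U17 had a log2 fold change of -0.01 (SE 0.399, 95% interval -0.86 to 0.84, edgeR adjusted p = 0.986). These intervals are wide, and changes of either sign within them cannot be told from no change with 3 libraries per group.

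**Figure D1:**
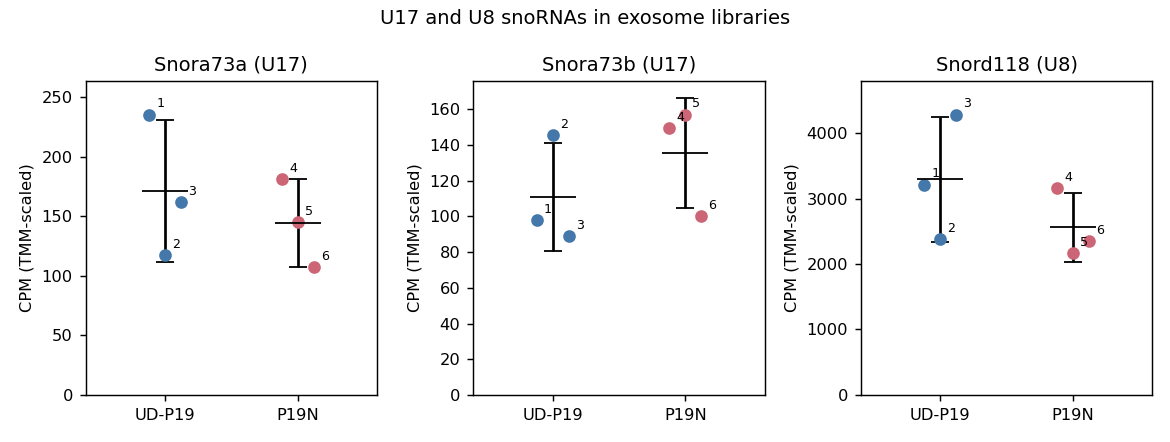
Level of Snora73a, Snora73b and Snord118 in CPM (vertical axes, TMM-scaled, starting at 0) in UD-P19 (blue) and P19N (red) exosomes. Points are libraries with their replicate number, and bars give the mean and SD of 3 libraries. The groups overlap for each snoRNA, and Snord118 is at 2170 to 4283 CPM against 89.1 to 235 CPM for the U17 genes.

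Per length, the level of U8 was between 16075 and 31728 CPM per kb over the 6 libraries, that of Snora73a between 523 and 1147, and that of Snora73b between 435 and 766. U8 was above both U17 genes in every library, whereas the U17 genes overlapped each other. The ratio of U8 to summed U17, as counts per length, was 14.7, 13.8 and 25.9 in the UD-P19 libraries and 14.5, 10.9 and 17.2 in the P19N libraries (p = 0.5, two-sided exact permutation test). By counts, U8 ranked 1, 1 and 1 among the 605 snoRNA transcripts in UD-P19 replicates 1 to 3 and 2, 3 and 2 in P19N replicates 4 to 6. By counts per length its ranks were 7, 1 and 1 in UD-P19 and 2, 5 and 4 in P19N exosomes. U8 held 4.88% ± 1.00 (SD, n = 3) of all snoRNA counts in UD-P19 and 4.04% ± 0.711 (SD, n = 3) in P19N exosomes (exact two-sided permutation test, p = 0.2). U17 held 0.443% in both, with an SD of 0.180 in UD-P19 and 0.105 in P19N exosomes (n = 3 each).

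Within U17, Snora73a made up 70.6%, 44.6% and 64.5% of the summed counts in the UD-P19 libraries and 54.8%, 48.0% and 51.7% in the P19N libraries. UD-P19 replicate 2 was the lowest of all and UD-P19 replicate 1 the highest. The difference was within the spread (exact two-sided permutation test, p = 0.4, adjusted p = 0.625 over a family of 5 tests). The log2 ratio of U17 to U8 counts was 0.31 higher in P19N exosomes, which was within the spread as well (same exact test, p = 0.5, adjusted p = 0.625). With 3 libraries against 3 the smallest p that this test can give is 0.1.

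The deposited table also holds unique counts, read here as reads that matched 1 transcript only, and exact counts, read as reads that matched without a mismatch. The table does not define these names, and both readings are assumptions. Both names also carry the word mature, which is not defined either. The part of the counts that is exact is called the exact share below, and the remainder inexact counts. Fits of the unique and the exact counts were set as alternatives from the start, whereas the exact shares and the fit of inexact counts were chosen after values were seen.

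The groups were separated by the exact share of U8, which was higher in P19N exosomes, and not by its level. The exact share was 40.6%, 37.2% and 43.1% in UD-P19 replicates 1, 2 and 3 and 77.6%, 78.4% and 70.9% in P19N replicates 4, 5 and 6. Every P19N library was above every UD-P19 library, as was the case at 31.6% of the 383 transcripts that had at least 20 counts in every library. Counting error was small beside the gap, since the 95% Wilson interval ran from 41.2% to 45.0% in UD-P19 replicate 3, the highest of its group, and from 68.7% to 73.0% in P19N replicate 6, the lowest. Means were 40.3% ± 2.93 (SD, n = 3) for UD-P19 and 75.6% ± 4.10 (SD, n = 3) for P19N, which gives a difference of 35.3 points (exact two-sided permutation test, p = 0.1, adjusted p = 0.25 over 5 tests). Leaving out each library in turn gave between 33.8 and 37.7 points.

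The inexact and exact counts behind these shares were compared as well. U8 had 780, 1267 and 1477 inexact counts in the UD-P19 libraries and 602, 356 and 492 in the P19N libraries. Its exact counts were 533, 752 and 1118 in UD-P19 and 2090, 1289 and 1200 in P19N exosomes. Scaled for library size, the inexact counts of U8 were at 1910, 1498 and 2438 CPM in UD-P19 and at 707, 470 and 685 CPM in P19N exosomes, without overlap. Inexact counts were likewise lower in P19N exosomes without overlap at 24.0% of 895 transcripts. The exact counts were at 1305, 889 and 1845 CPM in UD-P19 and at 2456, 1700.5 and 1670 CPM in P19N exosomes, and these overlapped, since UD-P19 replicate 3 was above P19N replicates 5 and 6. In a fit of the inexact counts of all transcripts (895 tested, 22.2% called, 7.82% lower), those of U8 were lower in P19N exosomes by a log2 fold change of -1.39, with an SE of 0.356 and a 95% interval from -2.13 to -0.65 (edgeR quasi-likelihood test, adjusted p = 0.00791). This fit uses the same reads as the exact share and is not independent of it. Over 12 alternatives the adjusted p was between 0.000179 and 0.0936. The call was lost without UD-P19 replicate 3 (log2 fold change -1.10, adjusted p = 0.0936) and without P19N replicate 5 (-1.20, adjusted p = 0.0796). In the fit of exact counts (966 tested, 37.4% called), U8 had a log2 fold change of 0.46 (SE 0.320, edgeR adjusted p = 0.259), which was not called.

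**Figure D2:**
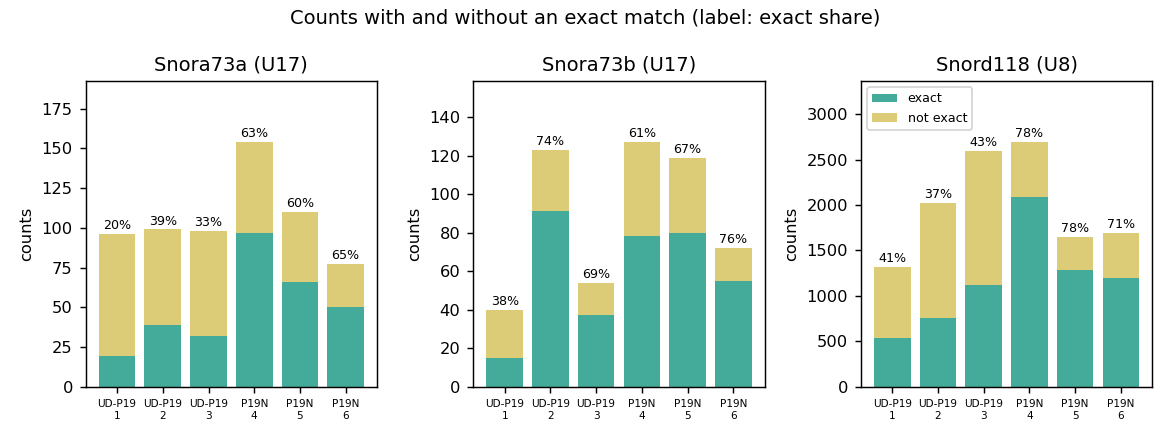
Counts of the 3 snoRNAs in each library (horizontal axis, group and replicate), divided into exact (green) and inexact counts (yellow), with the exact share above each bar. The exact share of Snord118 is 37.2% to 43.1% in UD-P19 and 70.9% to 78.4% in P19N exosomes, while its totals overlap.

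Among unique counts the exact share of U8 was 40.3%, 24.3% and 42.6% in UD-P19 and 77.7%, 78.3% and 70.9% in P19N exosomes, so that the gap was present in reads placed at U8 alone. Among its shared counts, which were few except in UD-P19 replicate 2, the exact share was 64.6% ± 9.49 (SD, n = 3) in UD-P19 and 75.6% ± 4.65 (SD, n = 3) in P19N exosomes.

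Snora73a also had a higher exact share in P19N exosomes, and its reads placed uniquely and its shared reads differed. The exact share was 19.8%, 39.4% and 32.7% in the UD-P19 libraries and 63.0%, 60.0% and 64.9% in the P19N libraries, without overlap, which held for 31.6% of the 383 transcripts and for 33.3% of the snoRNAs among them. The difference of the means was 32.0 points (exact two-sided permutation test, p = 0.1, adjusted p = 0.25 over 5 tests). Unique counts made up 79.2%, 44.4% and 64.3% of Snora73a in UD-P19 but 24.7%, 33.6% and 27.3% in P19N exosomes (exact two-sided permutation test, p = 0.1). Only 4, 0 and 2 unique counts were exact in UD-P19 and 3, 5 and 2 in P19N exosomes, an exact share of at most 13.5%. Shared counts of Snora73a, by contrast, had an exact share of 77.2% ± 7.65 (SD, n = 3) in UD-P19 and 83.4% ± 2.34 (SD, n = 3) in P19N exosomes. The gap of Snora73a was 7.50 points among unique counts and 6.23 points among shared counts, against 32.0 points in its total. The exact share of the total is the mean of both parts, weighted by their counts. The weight of the unique part was 62.6% ± 17.4 (SD, n = 3) in UD-P19 and 28.5% ± 4.61 (SD, n = 3) in P19N exosomes. How much of the 32.0 points came with this shift from unique to shared counts was not tested. Its inexact counts had a log2 fold change of -0.92 (edgeR adjusted p = 0.220), and its exact counts one of 0.79 (SE 0.397, edgeR adjusted p = 0.133). Neither was called.

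Snora73b did not separate the groups in this way. Its exact share was 37.5%, 74.0% and 68.5% in UD-P19 and 61.4%, 67.2% and 76.4% in P19N exosomes (exact two-sided permutation test, p = 0.7). UD-P19 replicate 1, with 40 counts, stood apart from the other libraries, and without it the difference of the means turned from 8.34 to -2.91 points. Unique counts made up between 95.3% and 100% of Snora73b in every library, although it differs from Snora73a at only 7 positions.

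The exact shares were read against the 383 transcripts that had at least 20 counts in every library. In these, the exact share of all 3 P19N libraries was above that of all 3 UD-P19 libraries at 121 transcripts (31.6%), and among the 162 snoRNAs at 54 (33.3%). The median difference was 3.89 points over all 383 and 4.67 points over the snoRNAs. U8 ranked 4 and Snora73a ranked 5 by the size of the difference, and Snora73b ranked 78. The ranks of U8 and Snora73a were the same with a minimum of 10 counts (471 transcripts) or 50 counts (278 transcripts). The exact share of all snoRNA counts without the 3 members was 68.6% ± 3.60 (SD, n = 3) in UD-P19 and 72.3% ± 0.469 (SD, n = 3) in P19N exosomes, and these groups did not overlap either (exact two-sided permutation test, p = 0.1). Over all transcripts it was 53.9% ± 8.55 (SD, n = 3) in UD-P19 and 61.6% ± 3.01 (SD, n = 3) in P19N exosomes, and the groups overlapped (exact two-sided permutation test, p = 0.2). Without the lincRNA Gm42418, which held the most counts, it was 42.3% ± 9.44 (SD, n = 3) in UD-P19 and 66.7% ± 2.30 (SD, n = 3) in P19N exosomes, without overlap (same exact test, p = 0.1). The part of this difference in the values of U8 was not tested.

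**Figure D3:**
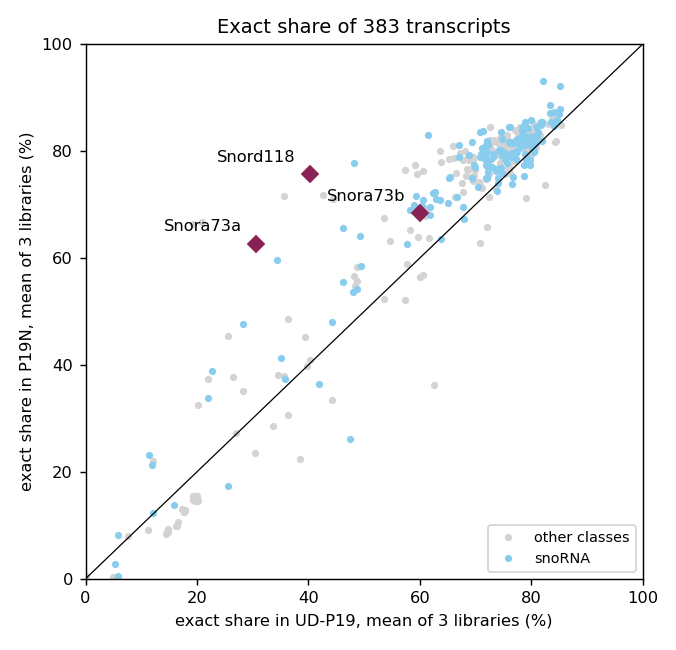
Exact share of 383 transcripts in UD-P19 (horizontal axis) and P19N exosomes (vertical axis), each the mean of 3 libraries in percent, with snoRNAs in blue, other classes in grey and the 3 members as diamonds. On the line both groups are equal. Snord118 and Snora73a lie 35.3 and 32.0 points above it, and Snora73b 8.34 points.

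Reads that did not match uniquely were counted at the members and at their partners in nearly equal parts. U8 had 24, 613 and 44 shared counts in the UD-P19 libraries and 33, 21 and 26 in the P19N libraries. Gm24208 had 27, 599 and 44 counts in UD-P19 and 29, 19 and 30 shared counts in P19N exosomes, and only 1 of its 749 counts was unique. UD-P19 replicate 2 alone thus held 599 of the 749 counts of Gm24208. Gm24208 was called lower in P19N exosomes (log2 fold change -3.06, SE 0.732, edgeR adjusted p = 0.00887), and without UD-P19 replicate 2 the call was lost (log2 fold change -0.80, adjusted p = 0.148). With U8 and Gm24208 summed (24.1% of transcripts called in that fit, 9.11% lower), the log2 fold change was -0.46 (SE 0.333, edgeR adjusted p = 0.317).

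Snora73a had 20, 55 and 35 shared counts in UD-P19 and 116, 73 and 56 in P19N exosomes. The overlapping transcript of Snhg3 had 23, 55 and 36 shared counts in UD-P19 and 124, 79 and 57 in P19N exosomes, and 39 of its 413 counts were unique. The other 4 Snhg3 transcripts of the table held at most 2 counts each. The unique counts of Snora73a were 76, 44 and 63 in UD-P19 and 38, 37 and 21 in P19N exosomes. Scaled for library size, shared counts of Snora73a were at 49.0 to 65.0 CPM in UD-P19 and at 77.9 to 136 CPM in P19N exosomes, and unique counts at 52.0 to 186 CPM and at 29.2 to 48.8 CPM. The groups overlapped in neither, as was the case, in the same direction, at 28.2% of 878 transcripts for shared counts and at 18.0% of 510 for unique counts. In the fit of unique counts (510 tested, 24.9% called, 10.6% lower), Snora73a had a log2 fold change of -1.26 (SE 0.450, edgeR adjusted p = 0.0654). Summed with the Snhg3 transcript it had one of 0.10 (edgeR adjusted p = 0.877).

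**Figure D4:**
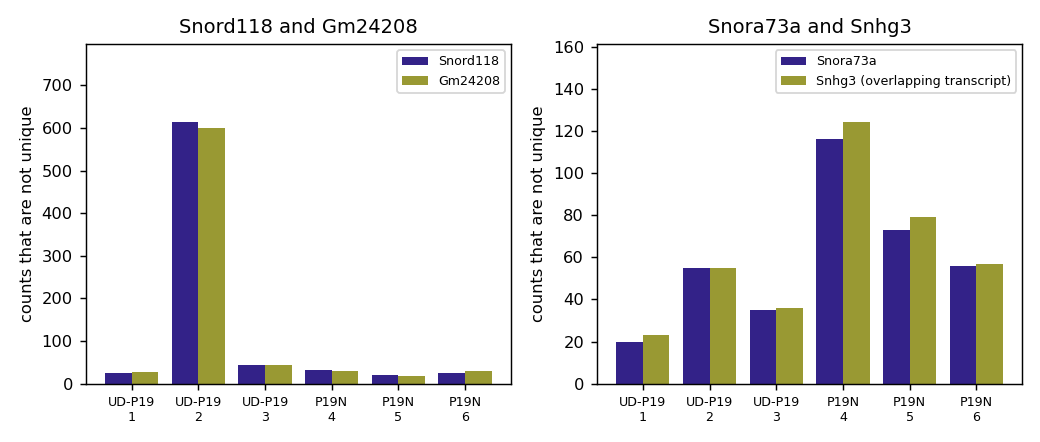
Counts that are not unique (vertical axes, starting at 0) at Snord118 and Gm24208 (left) and at Snora73a and the overlapping Snhg3 transcript (right) in each library (horizontal axis). Both bars of a pair are nearly equal in height, UD-P19 replicate 2 stands out on the left with 613 and 599 counts, and the P19N libraries are higher on the right.

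Another U17-like snoRNA, Gm26448 (chr9:120129351-120129553), was 89.1% identical to Snora73b over 202 nt, and nearly all of its reads were told apart (535 of 536 counts were unique). It had 47, 70 and 71 counts in UD-P19 and 125, 149 and 74 counts in P19N exosomes. Its level was 105 ± 19.3 CPM (SD, n = 3) and 149 ± 46.8 CPM (SD, n = 3), with a log2 fold change of 0.51 (SE 0.447, edgeR adjusted p = 0.415). Gm25483, a more distant copy, had 0 counts. Gm17300, a lincRNA whose sequence holds Snora73b in full and positions 1 to 175 of Snora73a in reverse, had 1 count.

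Of other RNAs known to act in rRNA processing, 13 of 16 listed genes had 19 tested transcripts. Of these 19, 2 were called higher in P19N exosomes, 0 lower and 17 not called. Among all 1286 tested transcripts, 193 were called higher and 116 lower (24.0% in all). The median log2 fold change of the 19 was 0.26, against 0.21 over all tested transcripts and -0.09 over the 425 tested snoRNAs. Of the 19, 10 were U3 transcripts that share reads, with a median of 0.24. The median of the 19 thus rests largely on U3 and is not one of 19 independent values. Of these snoRNAs, 75 were called higher and 48 lower (28.9% in all). This balance of the snoRNAs was not stable. It turned without UD-P19 replicate 1 (28 higher, 43 lower), UD-P19 replicate 3 (34 and 36) or P19N replicate 5 (22 and 24). The counts were 109 and 79 without UD-P19 replicate 2 and 38 and 28 without P19N replicate 4. The balance also turned with TMM on snoRNAs only (45 and 48) and with unique counts (21 and 27). Rmrp, the RNA of RNase MRP, which cleaves the precursor between the subunit rRNAs, had 2 overlapping transcripts in the table. The one annotated as a lincRNA rose from 5330 ± 1590 CPM (SD, n = 3) to 17874 ± 1199 CPM (SD, n = 3), a log2 fold change of 1.75 (SE 0.310, edgeR adjusted p = 0.000991). The one annotated as a ribozyme, with 0 unique counts, had a log2 fold change of 1.19 (SE 0.430, edgeR adjusted p = 0.0585) and was not called. Snord22, the U22 snoRNA needed for the small-subunit rRNA, was at 51.5 ± 0.428 CPM (SD, n = 3) and 125 ± 4.83 CPM (SD, n = 3), a log2 fold change of 1.28 (SE 0.443, edgeR adjusted p = 0.0482). The call of Snord22 was lost in 10 of 18 alternatives, with log2 fold changes of 1.02 to 1.26 and edgeR adjusted p between 0.0616 and 0.217. These were leaving out any one library except UD-P19 replicate 2, a minimum total of 5 counts, no filter, DESeq2 size factors, TMM without Gm42418 and TMM on snoRNAs only. In Snord22, 0 counts were unique. U3, which like U17 acts on the small-subunit side, had 10 transcripts from 5 genes, an overlapping pair at each, with 0 unique counts, so that they share reads. Their log2 fold changes lay between -0.43 and 0.37, and 0 were called. The U14 copies, which also act on the small subunit, were not called, with log2 fold changes of 1.18 (Snord14a), 0.70 (Snord14e), -0.56 (Snord14c) and -0.28 (Snord14d). Snord13 (U13, -0.77) and Snora62 (E2, -0.92) were not called either.

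**Figure D5:**
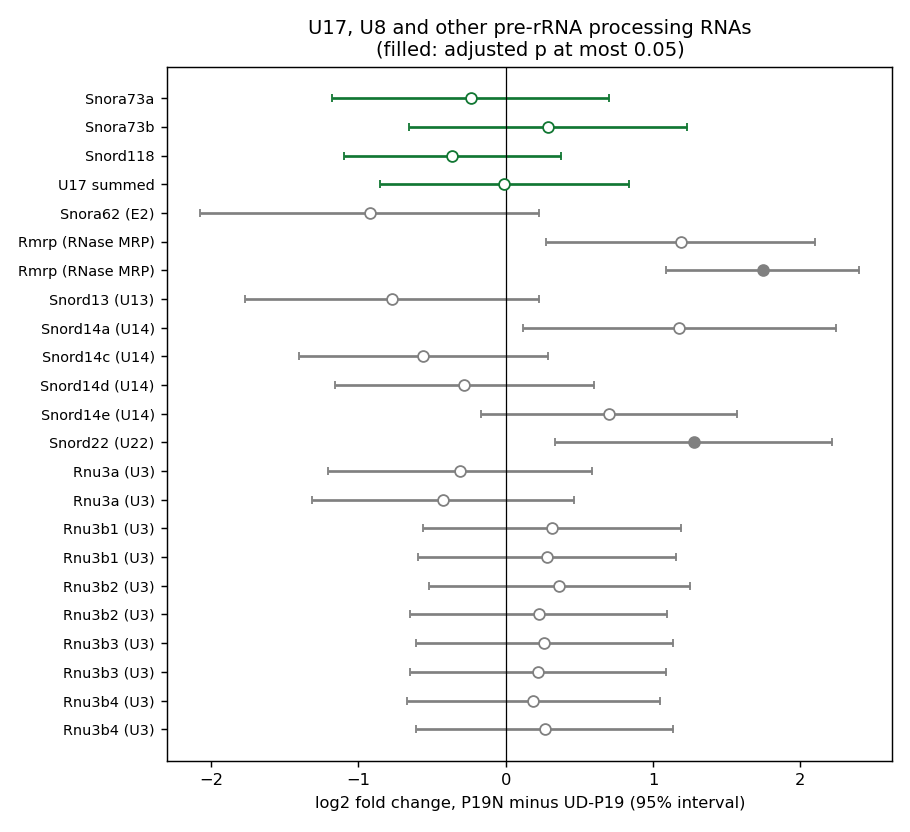
Log2 fold change (horizontal axis, P19N over UD-P19) of the 3 members and summed U17 (green) and of 19 other transcripts of rRNA processing RNAs (grey), with 95% intervals from the edgeR fit of 3 libraries per group. Filled points have an adjusted p of at most 0.05, which held for 1 transcript of Rmrp and for Snord22, and the intervals of the members all include 0.

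In exact share, 18 transcripts of this list had enough counts, and their differences ran from -0.28 points (Snord22) to 14.9 points (Snord13), below those of U8 and Snora73a. At 10 of the 18, of which 8 were U3 transcripts, every P19N library was above every UD-P19 library, against 31.6% of all 383 transcripts. The U3 transcripts, which share reads, differed by 5.99 to 11.0 points.

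The libraries differed in other ways as well. Markers of neurons (8 of 10 listed genes in the table, mainly Meg3 and Rian) summed to 9, 169 and 23 counts in UD-P19 and to 108, 102 and 63 counts in P19N exosomes, and UD-P19 replicate 2 was thus the highest of all. Of the same list, Mir9-1, Mir9-2 and Mir9-3 had 0 counts in UD-P19 and at most 2 each in any P19N library. The study likewise detected miR-9 in P19N exosomes only. The most counted Mir124-2hg transcript had 0, 1 and 2 counts in UD-P19 and 5, 4 and 0 in P19N exosomes. Miat had counts in both groups. Markers of pluripotent cells (4 of 13 genes in the table) summed to between 0 and 7 counts per library, too few to check the labelled cells, and the glia and muscle lists had 0 genes in the table. Without UD-P19 replicate 2 the log2 fold change of U8 was -0.35, that of Snora73a -0.28 and that of Snora73b 0.71, and none was called. The counts are of reads, not of molecules, so that the Wilson intervals cover counting error only, whereas the intervals of log2 fold changes also hold the spread between libraries.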

How the data were processed

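Small RNA was sequenced from 3 UD-P19 and 3 P19N exosome preparations, 1 library each (NEBNext small RNA kit, paired ends). The authors trimmed adaptors, joined read pairs and matched them to the ncRNAs of GRCm38 in CLC Genomics Workbench with default settings, and deposited counts per transcript without normalization. The treatment of reads with several matches, and the use of strand, are not given in the sources used here. The deposited group means (a signal without normalization), fold changes (ratios), p-values and FDR hold the authors' own comparison and were not used.

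Transcripts that reached 15 counts in total entered the quasi-likelihood F test in edgeR 4.0.16 (R 4.3.3; TMM, no covariate, Benjamini-Hochberg, adjusted p of at most 0.05). Single values were compared with exact permutation tests over 20 relabellings. Of these, only the tests of the Snora73a share of U17 and of the log2 ratio of U17 to U8 were set from the start. They form the family of 5 tests with the exact shares of the 3 members. All other permutation p-values lie outside this family and are not adjusted. On simulated counts with 200 of 1224 transcripts changed by a log2 fold change of 2, the test recovered 73.0% of them, and 2.67% of its calls were false. Sequences were compared with BLAST 2.17.0, and 5773 of 5880 identifiers were matched to GENCODE. Total counts per library were between 454499 and 887460. The Wilson intervals of the exact share of U8, which cover counting error only, were 3.15 to 5.30 points wide. Those of P19N replicate 5 (76.3% to 80.3%) and P19N replicate 6 (68.7% to 73.0%) did not overlap, so that they do not cover the spread between libraries. Alternatives were other filters, scalings and tests (DESeq2 1.42.0 and the exact test of edgeR, which the study used), unique, exact and inexact counts, summed partners, and each library left out. Inexact counts, summed partners and exact shares were added once values had been seen.

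The members and all lists were chosen with earlier results of these data known. Named transcripts were the members, the listed rRNA processing RNAs, host genes and neighbours, transcripts that share sequence with a member (at least 90% identity over 80% of the longer one), and for each member the 3 transcripts of the most similar pattern. Gm26448, Gm25483, Gm17300, Gm42418, B930036N10Rik, Gm24871, Snora57, Snord45b and n-R5s151 fell outside this rule and were named after their values were seen. Replicates were labelled as biological, and their number limits what can be called.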

Additional observations from a re-analysis of the deposited data

How the results depend on the processing

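Of 76 alternative log2 fold changes of the members and of summed U17, 63 kept their direction and call. Exact counts turned the direction of Snora73a (0.79), Snord118 (0.46) and summed U17 (0.49), and inexact counts brought Snord118 past the threshold (-1.39). With partners summed, Snora73a was at 0.10 and summed U17 at 0.16, and summed U17 was at 0.15 with filterByExpr and at 0.10 with total counts only. Adjusted p over 19 alternatives each was between 0.0654 and 0.952 for Snora73a, 0.147 and 0.993 for Snora73b, 0.00791 and 0.905 for Snord118, and 0.307 and 1.0 for summed U17. Leaving out each library in turn gave log2 fold changes from -0.60 to -0.05 for Snora73a, from -0.10 to 0.71 for Snora73b (-0.08 without UD-P19 replicate 1, -0.10 without UD-P19 replicate 3 and -0.06 without P19N replicate 5), from -0.71 to -0.29 for Snord118 and from -0.33 to 0.18 for summed U17 (0.12 without UD-P19 replicate 2, 0.18 without P19N replicate 6). The inexact counts of Snord118 gave -1.45 to -1.10. The cause of these shifts was not tested.

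The number of called transcripts was 127 with unique and 199 with inexact counts, of which fewer were tested (510 and 895), and between 199 (without P19N replicate 4) and 533 (without UD-P19 replicate 2) with a library left out. Of the snoRNAs, 45 were higher and 48 lower with TMM on snoRNAs only. With unique counts 21 were higher and 27 lower, and with inexact counts 30 and 28. With a library left out, 22 to 109 were higher and 24 to 79 lower. Of the other rRNA processing RNAs, 1 was higher with a minimum total of 5, without a filter, with DESeq2 size factors, with TMM without Gm42418 and with unique counts, 4 with filterByExpr and with exact counts, and 1 to 4 higher and 0 to 1 lower with a library left out. The median log2 fold change of all transcripts, 0.21, was 0.05 with DESeq2 size factors (178 higher, 189 lower), 0.34 with total counts only, -0.02 with TMM without Gm42418 (174 higher, 196 lower), 0.10 with TMM on snoRNAs only and 0.60 without UD-P19 replicate 2.

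The difference in the Snora73a share of U17 was -25.1 points with unique and 5.33 points with exact counts, and -16.0 to -3.03 points with a library left out. The difference in the log2 ratio of U17 to U8 was -0.21 with unique counts and 0.02 to 0.48 with a library left out. With unique counts the difference in exact share was 39.9 points for Snord118 and 7.50 points for Snora73a. With a library left out it was 33.8 to 37.7 points for Snord118, 26.6 to 36.4 points for Snora73a and -2.91 (without UD-P19 replicate 1) to 15.3 points for Snora73b. The overlapping Snhg3 transcript, at 0.68 in log2 fold change, was at -1.11 with unique counts, of which it had 39. No paired analysis was possible because the groups share no replicate number. The depth of the U17 genes, 40 to 154 counts per library, limits their exact shares to Wilson intervals 15.1 to 28.7 points wide.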

Other observations

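The transcripts with larger differences in exact share than U8, among the 383 with at least 20 counts in every library, were the antisense RNA B930036N10Rik, whose 2 transcripts differed by 47.0 and 45.8 points, and the snRNA Gm24871, which differed by 36.0 points. The snoRNA Snora57 came after Snora73a with 29.6 points (48.2% ± 14.2 in UD-P19 and 77.7% ± 5.61 in P19N exosomes, SD, n = 3). At the other end, where the exact share was lower in P19N exosomes, the difference was -26.4 points for the lincRNA Gm42418, -21.5 points for the snoRNA Snord45b and -16.1 points for the rRNA n-R5s151. No test was run on the exact shares of these transcripts.

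By Pearson's r of log2 CPM over the 6 libraries, among 757 transcripts that averaged 10 counts or more, the patterns most like that of U8 were those of the snoRNAs AF357399 (r = 0.956), Gm26447 (r = 0.937) and Gm23301 (r = 0.895). Those most like Snora73b were the snRNA Gm22623 (r = 0.967), Snord67 (r = 0.962) and the snRNA Gm22969 (r = 0.957), and those most like Snora73a were the snRNA Gm23143 (r = 0.908), the antisense RNA 2900060B14Rik (r = 0.887) and the snoRNA Gm22192 (r = 0.880). The 6 points share their libraries and scaling, and the values are a description.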
